A study of Mus musculus with 3 samples.

Results

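The miRNAs described here are the pair encoded in introns of myosin heavy chain genes, miR-208b-3p and miR-499-5p, together with the 2 arms of miR-486, a muscle-enriched miRNA encoded in an intron of the ankyrin gene Ank1. They were taken by name from the tables of miRNA-Seq reads, in which mmu-miR-208b-3p, mmu-miR-499-5p, mmu-miR-486a-5p, mmu-miR-486b-5p, mmu-miR-486a-3p and mmu-miR-486b-3p fill 6 of the 1138 rows. The rows of miR-486a-5p and miR-486b-5p held the same counts in each library and were treated as 1 miRNA, miR-486a/b-5p, which left 5 miRNAs with counts of their own. The libraries came from tibialis anterior (TA) muscles of wild type C57BL/6 mice, given in the labels as 10 weeks old, either uninjured (day 0) or collected 1 or 3 days post-CTX injury. CTX is cardiotoxin, a venom component that breaks down muscle fibers. The labels also mention saline as the control injection. Each time point was sequenced as 1 library of RNAs of 18 to 30 nucleotides, made from a pool of 4 samples, so there were 3 libraries and no replicates. No difference below therefore has a replicate check, and each compares 2 libraries rather than 2 conditions. The libraries of days 0, 1 and 3 held 8507580, 6421056 and 9795076 reads. The myofiber miRNA miR-1a-3p alone made up 23.4% of the reads on day 0, the level at which skeletal muscle was recognised in that library.

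Many muscle miRNAs are cut from the introns of the genes that they accompany, so that the miRNA and the host messenger RNA are made from the same transcript. Myh7 encodes the slow (beta) myosin heavy chain of slow fibers and heart, Myh7b encodes a related myosin, and their miRNAs are known for repressing transcriptional repressors of the slow fiber program. miR-486 is known for repressing Foxo1, a transcription factor that promotes muscle atrophy, and is also abundant in red blood cells and their precursors. The TA is a mostly fast muscle.

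Mir208b lies on chromosome 14 of GRCm38 from 54975700 to 54975776 on the minus strand, in intron 31 of a Myh7 transcript with 41 exons in GENCODE M21. Mir499 lies on chromosome 2 from 155622880 to 155622958 on the plus strand, in intron 19 of a Myh7b transcript with 42 exons. The hairpin Mir486 lies on chromosome 8 from 23142555 to 23142682 on the plus strand, and it was intronic in each of the 12 coding Ank1 transcripts that span it. In the transcript with 45 exons it is in intron 44. The hairpins Mir208b, Mir499 and Mir486 are each on the strand of their host gene. The hairpin of miR-486b was not placed separately, so its strand is not given here. The hairpins of the myosin pair, from RefSeq on GRCm38.p6 and 5′ to 3′, are shown to place the mature miRNA (capitals) in its precursor, on the 3′ side in Mir208b and on the 5′ side in Mir499.
Mir208b: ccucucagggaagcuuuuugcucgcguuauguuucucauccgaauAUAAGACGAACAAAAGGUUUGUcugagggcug
Mir499: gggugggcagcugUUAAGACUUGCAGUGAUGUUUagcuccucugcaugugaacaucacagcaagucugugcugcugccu

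The mature sequences show what the myosin miRNAs share. Capitals mark the seed, bases 2 to 8, which pairs with target messenger RNAs. miR-208a-3p, from an intron of the alpha myosin heavy chain gene Myh6, is included because it has the seed of miR-208b-3p.
miR-208b-3p: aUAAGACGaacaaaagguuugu
miR-208a-3p: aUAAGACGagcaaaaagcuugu
miR-499-5p: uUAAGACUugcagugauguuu
Counted from the 5′ end, miR-208b-3p and miR-208a-3p were equal at 19 of 22 positions, whereas miR-208b-3p and miR-499-5p were equal at 10 of 21. Within the seed, miR-208b-3p and miR-499-5p differ by G8U only, with miR-208b-3p given as the reference, so bases 2 to 7 (UAAGAC) are the same in both. Of the 953 listed miRNAs with a sequence in the RefSeq table, only these 3 had UAAGAC at bases 2 to 7. No sequence is given here for miR-486a and miR-486b.

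Levels were expressed as CPM (counts per 1000000 reads of the library), with a 95% Wilson interval. This interval covers the counting of reads only, and since PCR copies 1 molecule into several reads it understates the error. A level was taken as detectable from 3 reads, which corresponded to 0.353, 0.467 and 0.306 CPM in the libraries of days 0, 1 and 3. By this measure, 4 of the 5 miRNAs were well above the limit in each library and miR-208b-3p was close to it.

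miR-208b-3p, the miRNA of the slow myosin gene Myh7, was counted 4 times on day 0, 1 time on day 1 and 10 times on day 3. This gave a level of 0.470 CPM (95% interval 0.183 to 1.21) before injury, then 0.156 CPM (0.0275 to 0.882), and finally 1.02 CPM (0.555 to 1.88). The count on day 1 was below the detection limit, and the 3 intervals overlapped. The level on day 3 was 2.17 times that on day 0, with an exact interval from 0.626 to 9.49, and 6.56 times that on day 1, with an interval from 0.933 to 284. Both intervals contain 1, so a change in miR-208b-3p was not detectable at this depth. miR-208a-3p, of the mainly cardiac myosin gene Myh6, had 3, 1 and 2 reads in the order of the days, and its other arm, miR-208a-5p, had 2, 1 and 2 reads. These counts did not exceed the detection limit in any library.

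miR-499-5p, the miRNA of Myh7b, was counted 2689 times on day 0, 1179 times on day 1 and 786 times on day 3. In CPM these counts correspond to 316 (95% interval 304 to 328), 184 (173 to 194) and 80.2 (74.8 to 86.1), respectively. The level was thus lower on each later day, and no pair of these intervals overlapped. It was 1.72-fold lower on day 1 than on day 0, a log2 ratio of -0.78 (-0.88 to -0.68), and 3.94-fold lower on day 3, a log2 ratio of -1.98 (-2.09 to -1.86). From day 1 to day 3 it fell by a further 1.19 on the log2 scale. Among all miRNAs ordered by reads, miR-499-5p stood at rank 85 on day 0, 129 on day 1 and 184 on day 3. On day 0 it had 2689 reads for the 4 of miR-208b-3p. Among the listed miRNAs with a sequence, almost all reads with the shared bases UAAGAC thus came from miR-499-5p.

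miR-486a/b-5p was the most abundant of the 5 miRNAs in each library. It had 8634 reads before injury, 2715 on day 1 and 3622 on day 3. The level was 1015 CPM (95% interval 994 to 1036) in uninjured muscle, followed by 423 CPM (407 to 439) and 369.8 CPM (358 to 382). Relative to day 0 it was 2.40-fold lower on day 1, a log2 ratio of -1.26 (-1.33 to -1.20), and 2.74-fold lower on day 3, a log2 ratio of -1.46 (-1.51 to -1.40). The log2 ratio of day 3 to day 1 was -0.19 (-0.27 to -0.12), but it was 0.41 in the deposited expression values and 0.12 in those values scaled to their sum. Since 2 rows carry the same counts, reads from the hairpins of miR-486a and miR-486b were not told apart for this arm, and whether each read was entered in both rows is not given in the sources used here.

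miR-486a-3p, the opposite arm, had 4514 reads before injury, 1152 on day 1 and 1588 on day 3. This gave 531 CPM (95% interval 515 to 546), 179 CPM (169 to 190.1) and 162 CPM (154 to 170.3), respectively. As with the 5p arm, day 0 stood apart and days 1 and 3 were close to each other, with a log2 ratio of day 3 to day 1 of -0.15 that was 0.46 in the deposited expression values and 0.17 after scaling them. The log2 ratio to day 0 was -1.56 (-1.66 to -1.47) on day 1, 2.96-fold lower, and -1.71 (-1.79 to -1.63) on day 3, 3.27-fold lower. On day 1 the intervals of miR-486a-3p and miR-499-5p overlapped, whereas miR-486a-3p was above miR-499-5p on days 0 and 3.

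The row of miR-486b-3p took another course. It had 391 reads before injury, 422 on day 1 and 226 on day 3. The level was 46.0 CPM (95% interval 41.6 to 50.7) in uninjured muscle, followed by 65.7 CPM (59.7 to 72.3) and 23.1 CPM (20.3 to 26.3). Day 1 was thus the highest of the 3 libraries for this miRNA, whereas day 0 was the highest for the other miR-486 rows. The log2 ratio to day 0 was 0.52 (0.31 to 0.72) on day 1, but this sign depended on the scaling, and it was -0.43 when edgeR's TMM factors were used, -0.53 under median-of-ratios factors, -0.10 once the 10 most abundant miRNAs were taken out of the totals, and -0.11 in the deposited expression values after scaling them to their total. On day 3 the level was 1.99-fold lower than on day 0, just short of a 2-fold difference.

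**Figure D1:**
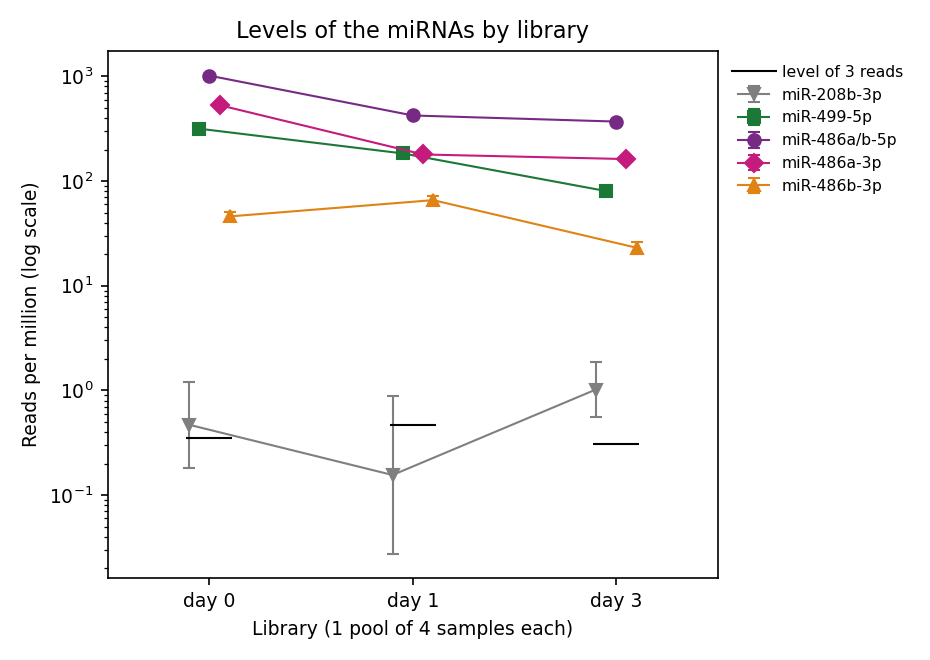
Levels of the 5 miRNAs in the 3 libraries, in CPM on a log axis, with 95% Wilson intervals that cover counting error only and black marks at the level of 3 reads. miR-486a/b-5p is the highest in each library (1015, 423 and 369.8 CPM), miR-499-5p is lower on each later day, miR-486b-3p is highest on day 1, and miR-208b-3p lies near the mark of 3 reads.

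To see how these differences compare with those of other miRNAs, the ratio of levels was computed for each miRNA with at least 10 reads in 1 of the 2 libraries, and a difference of at least 2-fold was counted. On day 1, miR-486a/b-5p and miR-486a-3p were at least 2-fold lower than on day 0, 2 of the 4 miRNAs that reached 10 reads, against 12.0% of the 532 miRNAs compared. None of the 4 was at least 2-fold higher, against 55.3% of all miRNAs compared. On day 3, miR-499-5p, miR-486a/b-5p and miR-486a-3p were at least 2-fold lower than on day 0, 3 of the 5, against 10.0% of the 569 miRNAs compared. miR-208b-3p, which reached the minimum only through its 10 reads on day 3, was past 2-fold in the other direction, as were 58.5% of all miRNAs compared. This 2-fold difference was present with library totals (1.12, also with identical rows counted once) and the unscaled expression values (1.32), and was lost with TMM factors (0.19), median-of-ratios factors (-0.00077), totals without the 10 most abundant miRNAs (0.61), scaled expression values (0.81) and a pseudocount of 1 CPM (0.46). Between days 1 and 3, miR-499-5p and miR-486b-3p were at least 2-fold lower on day 3 (17.7% of the 583 miRNAs compared) and miR-208b-3p was at least 2-fold higher (25.0%). The deposited expression values put miR-499-5p short of 2-fold in this comparison, at -0.59 unscaled and -0.88 scaled, and miR-486b-3p at -0.89 unscaled and -1.18 scaled, and with the pseudocount miR-208b-3p was at 0.81. Here too miR-208b-3p reached the minimum only through its 10 reads on day 3. Its 1 read on day 1 was below the detection limit. The intervals of its ratios of day 3 to days 0 and 1 contain 1, so neither is read as a change.

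The median log2 ratio of the 5 miRNAs was -1.26 on day 1 and -1.46 on day 3, whereas the median of all miRNAs compared was 1.28 and 1.47. On both days the median of the 5 was the ratio of miR-486a/b-5p itself. The miR-486 rows among the 5 are arms of the same miRNA, so they do not count as independent. When 10 reads were required in each of the 2 libraries, the median of all miRNAs was 0.90 (393 miRNAs) on day 1 and 0.93 (407 miRNAs) on day 3. Without miR-208b-3p, which did not reach 10 reads on days 0 and 1, the median of the other 4 on day 1 was -1.02. Ordered from the lowest ratio, miR-499-5p was at position 81 of the 532 on day 1 and at position 19 of the 569 on day 3. miR-486a/b-5p was at positions 49 and 33. miR-486a-3p was at positions 29 and 27, and miR-486b-3p at 190 and 58. Of 389 miRNAs with at least 10 reads in each of the 3 libraries, 24 were at least 2-fold lower than day 0 on both days, and these included miR-486a/b-5p, counted there as 2 rows, and miR-486a-3p. As CPM is a share of the reads, a change in abundant miRNAs moves the ratios of all others. With TMM factors, all log2 ratios were shifted by -0.94 on day 1 and -0.93 on day 3, with 187 miRNAs at least 2-fold higher and 129 lower on day 1 in place of 294 and 64, and 231 higher and 126 lower on day 3 in place of 333 and 57. Under these factors miR-499-5p was also past 2-fold on day 1 (-1.73) and miR-486b-3p on day 3 (-1.92).

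**Figure D2:**
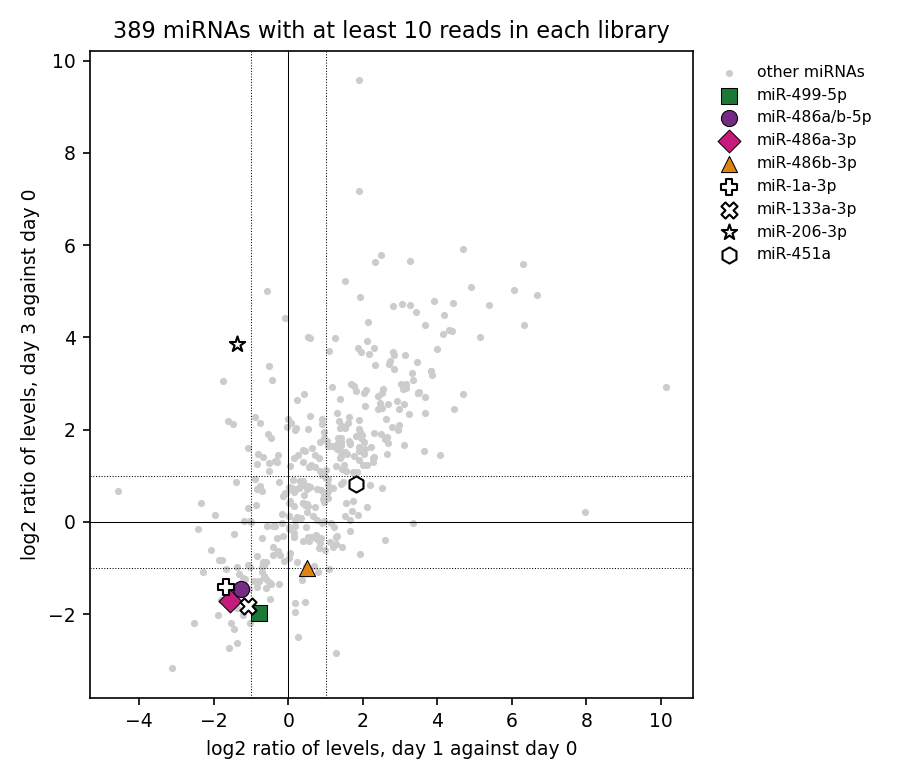
Log2 ratio of levels to day 0 on day 1 (horizontal axis) and on day 3 (vertical axis) for the 389 miRNAs with at least 10 reads in each library, with dotted lines at a 2-fold difference. miR-486a/b-5p, miR-486a-3p and miR-499-5p lie at the lower left beside miR-1a-3p and miR-133a-3p, miR-486b-3p lies to the right of them at 0.52 on day 1, and miR-208b-3p is left out because it did not reach 10 reads on days 0 and 1.

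Whether the miRNAs differed in their course was asked with the difference of their log2 ratios, which does not depend on the scaling of the libraries. On day 1, the log2 ratio of miR-499-5p was 0.48 above that of miR-486a/b-5p (95% interval 0.36 to 0.60), and on day 3 the difference was -0.52 (-0.65 to -0.39). In these libraries the order of the pair was opposite on the 2 days: miR-486a/b-5p was the further reduced on day 1, and miR-499-5p on day 3. For day 3 against day 1, the difference between them was -1.001 (-1.15 to -0.85). The ratio of miR-486a-3p was below that of miR-486a/b-5p by a small amount on both days, with differences of -0.30 (-0.41 to -0.19) and -0.25 (-0.35 to -0.15). A larger difference separated the 3p rows, as the log2 ratio of miR-486b-3p was 2.08 above that of miR-486a-3p on day 1 (1.86 to 2.30) and 0.72 above it on day 3 (0.47 to 0.97). These intervals cover counting error only. If the libraries of a time point varied with a coefficient of variation of 0.2, an assumed figure, a log2 ratio would carry a 95% half-width of 0.80, and with 0.4 it would carry 1.60. Against the smaller of these, and with library totals, the ratios to day 0 of miR-499-5p and miR-486b-3p on day 3 would exceed the half-width. So would those of miR-486a/b-5p and miR-486a-3p on both days. In the unscaled deposited expression values, miR-486b-3p on day 3 was at -0.78 and would not exceed it. With library totals, the ratios of miR-499-5p (-0.78) and miR-486b-3p (0.52) on day 1 would not exceed it either. For miR-499-5p this depended on the scaling. Its day 1 ratio would exceed 0.80 in the deposited expression values, both unscaled (-1.17) and scaled (-1.39). The same held under TMM (-1.73), under median of ratios (-1.83), and once the 10 most abundant miRNAs were left out (-1.40). With the pseudocount (-0.78) it would not. miR-208b-3p was not compared in this way because its counting intervals contain 0. These half-widths are for a single log2 ratio and were not applied to the differences between miRNAs. Against the larger, and with library totals, the ratios to day 0 of miR-499-5p and miR-486a-3p on day 3 would exceed it. With TMM factors each ratio to day 0 compared here would exceed it, apart from miR-486b-3p on day 1 (-0.43). In the unscaled expression values miR-499-5p on day 3 (-1.76) and miR-486a-3p on day 1 (-1.93) would exceed it. There miR-486a-3p on day 3 (-1.47) would not.

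The arms of miR-486 were then compared within each library. The 3p reads of both rows made up 36.2% of the miR-486 reads before injury (95% interval 35.4 to 37.0). The share was 36.7% (35.3 to 38.2) after 1 day and 33.4% (32.1 to 34.6) after 3 days, with the 5p reads counted once. If the 2 identical 5p rows hold different reads and are summed, the shares become 22.1%, 22.5% and 20.0%. In either case the intervals of days 0 and 1 overlapped and that of day 3 lay below both. The split of the 3p reads between the rows was less even. miR-486b-3p held 7.97% of the 3p reads before injury (7.25 to 8.76), then 26.8% (24.7 to 29.1) and 12.5% (11.0 to 14.1), and no pair of these intervals overlapped. Summed over both rows, the 3p arm had a log2 ratio to day 0 of -1.23 on day 1, beside the -1.26 of the 5p arm, and of -1.64 on day 3. The mature sequences of miR-486a-3p and miR-486b-3p are known to be nearly identical, and how the authors divided the reads between their rows is not given in the sources used here, so the values of each row, and of their sum, are uncertain.

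**Figure D3:**
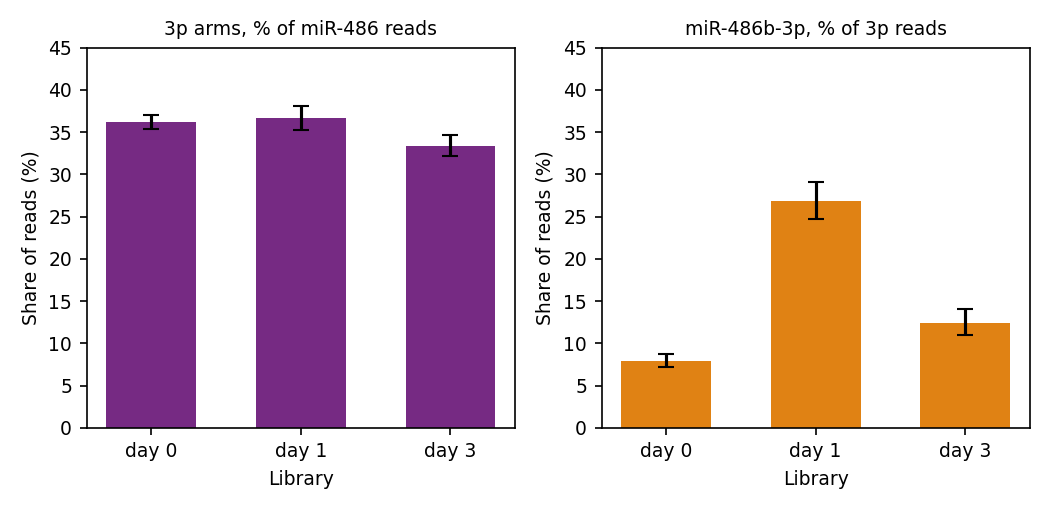
Left, the share of miR-486 reads that came from the 3p arm (both rows summed, 5p counted once), and right, the share of the 3p reads listed under miR-486b-3p, in percent for each library with 95% Wilson intervals. The left bars stand at 36.2%, 36.7% and 33.4%, and the right bars at 7.97%, 26.8% and 12.5%.

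Levels were also set against miR-1a-3p and miR-133a-3p, abundant miRNAs of mature myofibers, within the same library. For 1000 reads of miR-133a-3p there were 12.2, 15.0 and 10.9 reads of miR-499-5p in the libraries of days 0, 1 and 3. The corresponding numbers for miR-486a/b-5p were 39.2, 34.6 and 50.4. In reads, these ratios differed by less than 1.5 times between any 2 libraries. In the deposited expression values, miR-499-5p differed by more than that between days 0 and 3, at 28.2, 21.4 and 15.5. miR-486a/b-5p did so between days 0 and 1, at 86.9, 49.0 and 70.6. Against 1000 reads of miR-1a-3p, miR-499-5p had 1.35, 2.49 and 0.911 reads and miR-486a/b-5p had 4.34, 5.73 and 4.20 reads. In the deposited expression values these numbers were 16.3, 8.73 and 5.10 for miR-499-5p and 50.3, 19.9 and 23.3 for miR-486a/b-5p, so that day 1 was below day 0 for both instead of above it. The expression value of miR-1a-3p was 8.09%, 28.2% and 17.6% of its reads in the 3 libraries. On the log2 scale, the ratio of miR-499-5p to day 0 was 0.30 above that of miR-133a-3p on day 1 (0.20 to 0.40) and differed from it by -0.16 on day 3 (-0.28 to -0.05), and that of miR-486a/b-5p differed by -0.18 (-0.24 to -0.12) and 0.36 (0.30 to 0.42). In the deposited expression values these 4 differences were -0.40, -0.87, -0.83 and -0.30, so that the sign was opposite for miR-499-5p on day 1 and for miR-486a/b-5p on day 3. In bulk muscle, fewer myofibers and less of an miRNA in each myofiber cannot be told apart.

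Of the 4 myofiber miRNAs listed for comparison, all were at least 2-fold lower on day 1 than on day 0, beside 12.0% of all miRNAs compared, with log2 ratios from -2.33 to -1.08. In the unscaled deposited expression values miR-1a-3p (160688 on day 0 and 133730 on day 1) and miR-133a-3p (93008 and 54433) were lower by less than 2-fold. On day 3 the myofiber miRNAs diverged. With library totals miR-133a-3p was at -1.82 and miR-1a-3p at -1.41, below day 0 as were miR-499-5p and miR-486. miR-133b-3p was at 0.41 and miR-206-3p, which is known for regenerating fibers, at 3.86. In the unscaled expression values miR-1a-3p was at 152274 and miR-133a-3p at 50185 on day 3. There miR-1a-3p was close to its day 0 value, beside log2 ratios of -1.76 for miR-499-5p and -1.19 for miR-486a/b-5p. The miRNAs of red blood cells moved the other way from the myofiber list on day 1. All 3 erythroid miRNAs were at least 2-fold higher on day 1 than on day 0, as were 55.3% of all miRNAs compared. Their log2 ratios were 1.74 to 1.83 on day 1, beside a median of 1.28 for all miRNAs compared. On day 3 they were at 0.44 to 0.91, beside a median of 1.47. Their summed level in the 3 libraries was 7145, 25335 and 12564 CPM. The summed levels of the leukocyte list (5495, 21609 and 10071 CPM) and of the endothelial list (59427, 132923 and 58732 CPM) were likewise highest on day 1. Over the same libraries, miR-486a/b-5p went from 143 to 16.8 and 29.6 reads for 1000 reads of the erythroid miR-451a, and miR-486b-3p from 6.47 to 2.61 and 1.85. In the deposited expression values these numbers were 186, 31.3 and 49.7 for miR-486a/b-5p and 8.91, 4.91 and 3.17 for miR-486b-3p. The part of blood in the miR-486 reads was not tested. Of 8 leukocyte miRNAs, 6 were at least 2-fold higher on day 1 and 6 on day 3. Both endothelial miRNAs were at least 2-fold higher on day 1 and neither on day 3. Of all miRNAs compared, 55.3% were at least 2-fold higher on day 1 and 58.5% on day 3. The other 2 leukocyte miRNAs, miR-150-5p and miR-155-5p, were at 0.81 and 0.77 on day 1. On day 3 miR-150-5p was below day 0, at -0.57, and miR-155-5p was at 0.72. These directions hold for library totals. In the unscaled expression values miR-451a (43448 on day 0 and 85080 on day 1) and miR-126a-3p (125421 and 153484) were higher by less than 2-fold. The median-of-ratios factors shift all log2 ratios by -1.04 on day 1 and -1.12 on day 3, under which the erythroid and endothelial miRNAs were above day 0 by less than 2-fold on day 1, and the erythroid miRNAs and miR-133b-3p were below day 0 on day 3. Under the same factors both endothelial miRNAs were at least 2-fold lower on day 3, and 2 leukocyte miRNAs, miR-150-5p and miR-155-5p, were below day 0 on both days.

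The miRNAs with the most similar course were found by the distance between their pair of log2 ratios (days 1 and 3 against day 0) and that of each miRNA described here, among 113 miRNAs with at least 1000 reads on day 0. This distance is not changed by scaling, and it rests on 3 libraries. It was computed from the read counts and not from the deposited expression values. miR-499-5p was nearest to miR-378a-3p, at a distance of 0.12, with log2 ratios of -0.71 on day 1 and -2.07 on day 3. The next were miR-378b at 0.32 and miR-133a-3p at 0.34. In the deposited expression values the log2 ratio of miR-499-5p differed from that of miR-133a-3p by -0.40 on day 1 and -0.87 on day 3. For miR-486a/b-5p, the nearest were miR-328-3p at 0.25, miR-196a-5p at 0.38 and its own 3p arm miR-486a-3p at 0.39. miR-486a-3p lay nearest to miR-1a-3p at 0.32, miR-486a/b-5p at 0.39 and miR-1b-5p at 0.44. The likeness to miR-1a-3p held for reads, with 2.27, 2.43 and 1.84 reads per 1000 of miR-1a-3p on days 0, 1 and 3. It did not hold in the deposited expression values, where these numbers were 27.0, 8.52 and 10.3. None of these nearest miRNAs was near miR-486b-3p, whose closest miRNAs were miR-30e-5p at 0.19, miR-150-5p at 0.52 and miR-151-5p at 0.53. For miR-208b-3p, with 10 reads at most, the nearest were miR-411-5p, miR-133b-3p and miR-615-3p at distances of 1.00 to 1.03, which its counting error does not resolve.

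**Figure D4:**
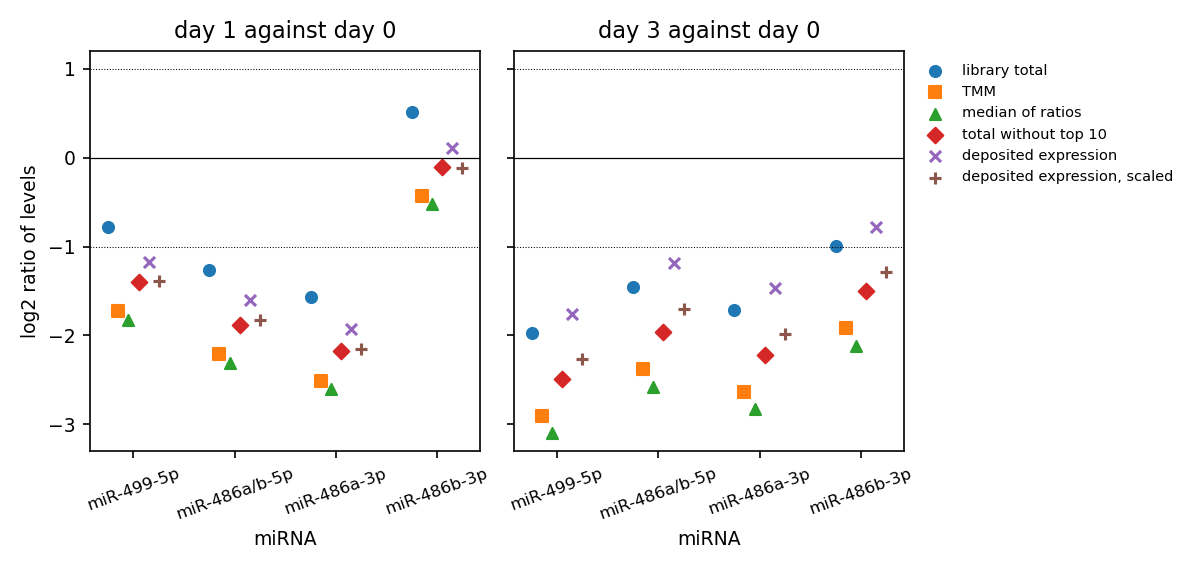
Log2 ratio of levels to day 0 for the 4 miRNAs above the detection limit in each library, on day 1 (left) and day 3 (right), under 6 ways of scaling: the library total, TMM, median of ratios, the total less the 10 most abundant miRNAs, and the deposited expression values, unscaled or scaled. miR-499-5p, miR-486a/b-5p and miR-486a-3p are below 0 in each, whereas miR-486b-3p on day 1 is above 0 with the library total (0.52) and the unscaled deposited values (0.11) and below 0 in the others.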

How the data were processed

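Small RNAs from TA muscle were sequenced by the authors on the BGISEQ platform, in 3 libraries of 4 pooled samples each. The submitters' processing notes name GRCm38.p6, HISAT and Bowtie2. The role of each tool and the miRNA annotation are not given in the sources used here. For each of 1138 mature miRNAs the authors deposited a read count, without normalization, together with a second number called expression. How this deposited number was made is not stated, and it was handled as a score.

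The miRNAs, lists and thresholds were chosen with earlier results of these data known. Groups came from the time point in the labels. Counts were divided by the library total. Ratios have exact conditional (Clopper-Pearson) 95% intervals, and differences between log2 ratios have Wald intervals. With 1 library per time point no test was run for the miRNAs described, and a fold change of 2 was applied alone, without the false discovery rate that the study's threshold also had, to miRNAs with at least 10 reads in 1 of the 2 libraries. The named miRNAs were those given by name, the listed other arms of their hairpins, miR-208a, miRNAs with the same seed, lists for myofibers, red blood cells, leukocytes and endothelium, and the 3 of most similar course. miR-208b-5p and miR-499-3p were not among the listed miRNAs, so they could not be analysed here. The alternatives were TMM and median-of-ratios factors, totals less the 10 most abundant miRNAs, the deposited expression values, a pseudocount of 1 CPM, minimums of 1 or 100 reads, a fold change of 4, and Fisher's exact test on the reads with a Benjamini-Hochberg adjusted p of 0.001. Counting identical rows once in the total, and scaling the expression values to their total, were added after the data were seen. The ratios and calls were tested on simulated counts, drawn from the day 0 levels with counting error only and with 4-fold changes. The simulated counts held no variation between libraries, so this test checks the arithmetic and cannot measure that variation. Sequences were from RefSeq on GRCm38.p6 (2 of the 6 rows matched) and positions from GENCODE M21 on GRCm38. TMM factors came from edgeR 4.0.16 and median-of-ratios factors from DESeq2 1.42.0 in R 4.3.3, and everything else was computed in Python 3.11.15 using scipy 1.17.1, pandas 2.3.3, numpy 2.4.6 and, for plots, matplotlib 3.10.9.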

Additional observations from a re-analysis of the deposited data

How the results depend on the processing

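The data are 1 library per time point, so leaving out a replicate could not be done and no setting measures the spread between animals. No paired analysis was possible because each time point has 1 pooled library. Depth limits miR-208b-3p, with 1 to 10 reads. Under each setting run, miR-499-5p, miR-486a/b-5p and miR-486a-3p were below day 0 on days 1 and 3. For the changes of size and sign listed next, the cause was not tested beyond the arithmetic of each setting. Values for days 1 and 3 are log2 ratios to day 0, in the order miR-499-5p, miR-486a/b-5p, miR-486a-3p and miR-486b-3p.

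With TMM factors the ratios were -1.73, -2.21, -2.51 and -0.43 on day 1 and -2.90, -2.38, -2.64 and -1.92 on day 3. Of all miRNAs, 187 were then at least 2-fold higher and 129 lower on day 1, and 126 lower on day 3. With median-of-ratios factors the ratios were -1.83, -2.30, -2.61 and -0.53 on day 1 and -3.10, -2.58, -2.83 and -2.11 on day 3, with 176 miRNAs higher and 138 lower on day 1, and 208 higher and 141 lower on day 3. Under these factors miR-208b-3p on day 3 went from 1.12 to -0.00077, and miR-486a/b-5p was at -0.27 for day 3 against day 1. With totals that left out the 10 most abundant miRNAs, they were -1.40, -1.88, -2.18 and -0.10 on day 1 and -2.49, -1.96, -2.22 and -1.50 on day 3, with 110 and 93 miRNAs lower, and miR-486a/b-5p was at -0.085 for day 3 against day 1.

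The deposited expression values, unscaled, gave -1.17, -1.60, -1.93 and 0.11 on day 1, and -1.76, -1.19, -1.47 and -0.78 on day 3. For day 3 against day 1 they gave -0.59, 0.41, 0.46 and -0.89, with 58 miRNAs at least 2-fold lower, so that both miR-486a/b-5p and miR-486a-3p changed sign. Scaled to their total, an alternative chosen after seeing the data, they gave -1.39, -1.82, -2.15 and -0.11 on day 1 (107 miRNAs lower), -2.27, -1.70, -1.98 and -1.29 on day 3, and -0.88, 0.12, 0.17 and -1.18 for day 3 against day 1. In the expression values, miR-499-5p had 16.3, 8.73 and 5.10 per 1000 of miR-1a-3p and 28.2, 21.4 and 15.5 per 1000 of miR-133a-3p on days 0, 1 and 3, and miR-486a/b-5p had 50.3, 19.9 and 23.3, and 86.9, 49.0 and 70.6. The difference in log2 ratio from miR-133a-3p was then -0.40 and -0.87 for miR-499-5p on days 1 and 3, and -0.83 and -0.30 for miR-486a/b-5p. That from miR-1a-3p was -0.90 and -1.68 (-0.78 for day 3 against day 1), and -1.33 and -1.11 (0.22 for day 3 against day 1). The differences among the miRNAs described and the arm shares stayed within their counting intervals.

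Counts of all miRNAs past the threshold moved with the filter. From 1 read, 551 were higher and 165 lower on day 1, 630 and 157 on day 3, and 360 and 271 for day 3 against day 1. From 100 reads, 152 were higher and 37 lower on day 1, 195 higher on day 3, and 87 higher and 52 lower for day 3 against day 1. At 4-fold the counts were 180 and 13, 221 and 18, and 76 and 34. The pseudocount, counting identical rows once and adding Fisher's exact test, which compares 2 libraries and not conditions, moved no count by more than 1.5 times and no ratio out of its counting interval.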

Other observations

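The deposited expression values of the miRNAs described were close to their read counts. They were 97.5%, 99.0% and 98.7% of the reads for miR-499-5p on days 0, 1 and 3, and 93.6%, 98.2% and 97.8% for miR-486a/b-5p. For miR-208b-3p they equalled the reads in each library. Together the 5 miRNAs, with the 5p reads counted once, made up 0.191%, 0.0852% and 0.0636% of the 3 libraries. Identical counts in all 3 libraries, as for miR-486a-5p and miR-486b-5p, were also found for miR-199a-3p and miR-199b-3p (7431, 11755 and 26699 reads) and for let-7a-1-3p and let-7c-2-3p (683, 518 and 855 reads).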
